A study of Mus musculus with 9 samples.

Results

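Cholesterol synthesis genes and targets of the transcription factor SREBP2 were examined in liver RNA of male Balb/c mice with CCl4-induced fibrosis. The 27 genes were taken by symbol from a named list of pathway genes, and all 27 were found among the 17305 genes of the expression table. The 9 livers came from 3 groups of 3 mice. In the sh1_CCl4 and sh2_CCl4 groups the mice received AAV8 carrying shRNA-lncHELF1# or shRNA-lncHELF2#, either of which targets the lncRNA lnc-Helf. The NC_CCl4 group received AAV8-NC, the control virus. All 9 mice were 8 weeks old, were treated with CCl4 for 8 weeks and, by the labels, were given 1e+12 pfu of virus by tail vein, 4 weeks into the CCl4 treatment (the study's methods give an earlier time and a lower dose). No liver without CCl4 or without virus was analysed here, so the effect of CCl4 itself is not part of any comparison. Whole liver RNA was sequenced, and fewer cells of a type cannot be told apart from less RNA per cell.

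SREBP2, encoded by Srebf2, is made as an inactive precursor in the endoplasmic reticulum. When sterols are scarce its escort SCAP carries it to the Golgi for cleavage, and the released fragment enters the nucleus and raises transcription of the cholesterol synthesis enzymes. When sterols are plentiful, INSIG1 and INSIG2 hold SCAP in the endoplasmic reticulum, and since Insig1 is itself an SREBP target the pathway feeds back on itself. The liver makes much of the body's cholesterol, mostly in hepatocytes.

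The promoters of 4 genes are shown because the results turn on them. Ebp and Mylip were the genes that passed the test, Insig1 is the feedback gene, and Hmgcs1 was the gene whose promoter held a sterol-element motif. Each is 300 bases of RefSeq sequence on GRCm38.p6 in the direction of transcription, 250 before the annotated start and 50 after it, with matches to the motifs searched on both strands in capitals. The Hmgcs1 promoter lies at chr13:119690101-119690400 (+ strand), that of Ebp at chrX:8193463-8193762 (- strand), that of Insig1 at chr5:28071162-28071461 (+ strand) and that of Mylip at chr13:45389492-45389791 (+ strand).
Hmgcs1: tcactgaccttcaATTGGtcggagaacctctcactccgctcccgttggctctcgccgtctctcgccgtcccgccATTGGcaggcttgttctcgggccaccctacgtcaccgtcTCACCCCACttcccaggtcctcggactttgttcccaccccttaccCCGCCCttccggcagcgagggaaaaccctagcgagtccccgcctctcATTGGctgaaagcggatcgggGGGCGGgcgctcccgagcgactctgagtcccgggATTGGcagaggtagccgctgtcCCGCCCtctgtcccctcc
Ebp: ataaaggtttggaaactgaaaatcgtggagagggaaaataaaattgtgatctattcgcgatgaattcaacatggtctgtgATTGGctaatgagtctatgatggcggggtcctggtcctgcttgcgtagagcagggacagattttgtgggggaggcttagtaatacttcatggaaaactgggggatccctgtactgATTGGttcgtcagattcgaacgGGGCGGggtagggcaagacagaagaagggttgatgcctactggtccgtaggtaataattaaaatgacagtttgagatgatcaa
Insig1: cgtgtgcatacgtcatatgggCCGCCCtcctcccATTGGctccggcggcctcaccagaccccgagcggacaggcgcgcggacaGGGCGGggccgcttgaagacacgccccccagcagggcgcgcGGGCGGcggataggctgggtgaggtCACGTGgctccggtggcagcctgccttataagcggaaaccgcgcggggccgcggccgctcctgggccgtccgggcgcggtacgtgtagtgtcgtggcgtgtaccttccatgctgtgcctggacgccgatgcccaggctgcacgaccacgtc
Mylip: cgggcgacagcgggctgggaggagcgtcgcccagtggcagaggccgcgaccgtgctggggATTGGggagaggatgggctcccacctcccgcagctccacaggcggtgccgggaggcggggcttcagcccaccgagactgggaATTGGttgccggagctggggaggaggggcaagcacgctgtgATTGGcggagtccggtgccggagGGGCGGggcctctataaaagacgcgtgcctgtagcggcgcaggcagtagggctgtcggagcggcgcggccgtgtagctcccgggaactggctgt
The table held 29 promoters for 23 of the 27 genes. Fdps, Fdft1, Sqle and Stard4 had no entry. The motif TCACNCCAC, a form of the sterol regulatory element, was found in 1 of the 29 promoters, against 1.24% of all 32851 promoters of the same length. That match was TCACCCCAC in the Hmgcs1 promoter, beginning 137 bases before the start. The NF-Y motif CCAAT was found in 21 of the 29 (72.4%), against 37.4% of all promoters, and the GC box GGGCGG in 23 of the 29 (79.3%), against 35.7%. The E-box CACGTG was found in 6 of the 29 (20.7%), against 7.15%, and in the printed promoters only in that of Insig1. The Scap windows overlap, so that the same site there counts more than once. Counted by gene, CCAAT was found in 21 of 23 genes (91.3%), against 41.1% of all 27025 genes. GGGCGG was found in 20 genes (87.0%), against 38.2%, and CACGTG in 5 (21.7%), against 8.09%. Of the matches in the 29 promoters, 0 overlapped a match of another motif. These letters are a description of the windows, and no binding was measured.

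The libraries held 14265875 to 16816431 expected counts. Fmo2, the gene that holds lnc-Helf, was measured at 104 to 122 CPM in sh1_CCl4 livers, 88.2 to 174 in sh2_CCl4 livers and 202 to 264 in NC_CCl4 livers (CPM is counts scaled to a common library size). The 10 hepatocyte markers examined were detected in every library. Alb took 11.5, 10.5 and 6.81% of the counts in sh1_CCl4 replicates 1 to 3, 12.4, 10.3 and 7.49% in sh2_CCl4 and 8.35, 8.57 and 11.6% in NC_CCl4. A gene is called when its adjusted p was under 0.05 in edgeR's quasi-likelihood test over the 13059 genes that passed the low-count filter, which 26 of the 27 genes did. Changes are log2 fold changes of CPM with their standard error (SE), and levels between genes are compared in TPM, which takes gene length into account.

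Transcripts of the pathway were abundant and unevenly so. The highest median over the 9 livers was that of Fdps, farnesyl diphosphate synthase, at 243 TPM (89.7 to 511). It was followed by Msmo1 at 216, Ebp at 185, Insig1 at 175, Sc5d at 158 and Hmgcs1 at 136 TPM, and the ranges of these neighbours overlapped. The lowest of the tested genes were Lbr at 5.90, Mylip at 5.07 and Ggps1 at 3.74 TPM. Tm7sf2 and Lbr encode the pair of sterol C14-reductases of the pathway, and Tm7sf2 stood above Lbr in every library, 9.61 to 16.3 times in TPM. Insig1 stood above Insig2 in every library too, 1.19 to 4.63 times.

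**Figure D1:**
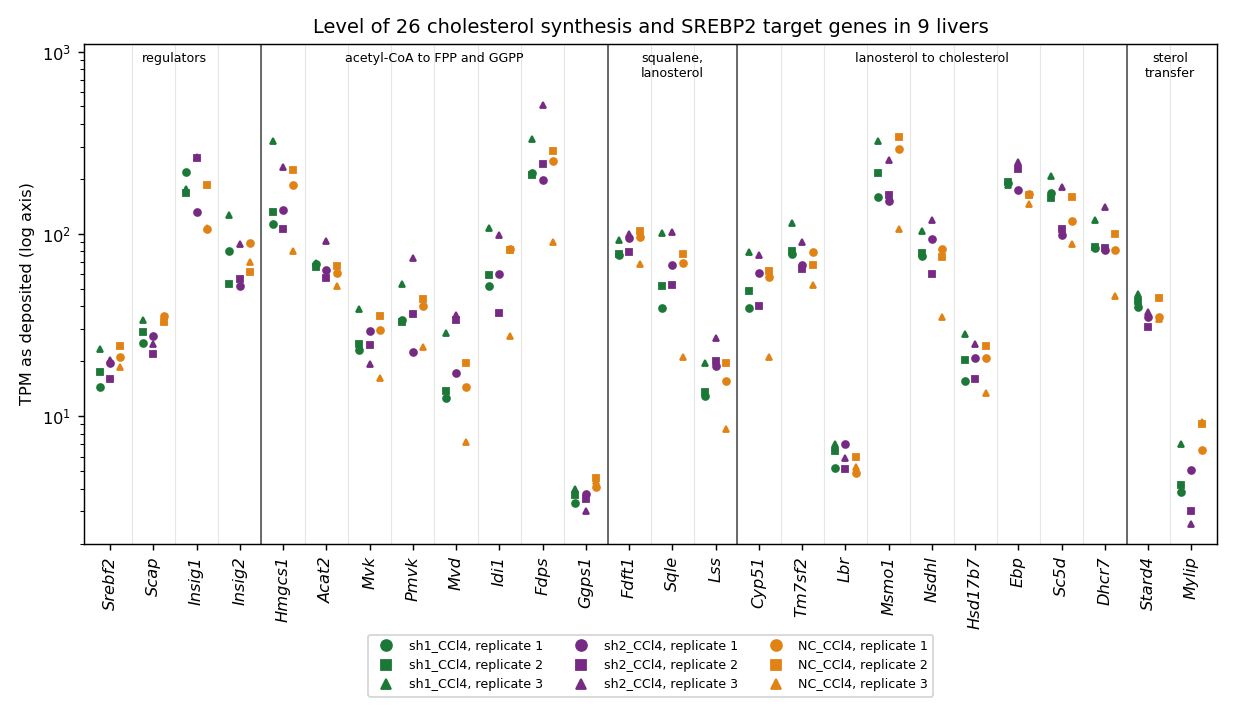
Level in TPM (log axis) of the 26 tested genes in each of the 9 livers, grouped by pathway step, with a point per library and the marker shape giving the replicate. The medians span 3.74 TPM for Ggps1 to 243 TPM for Fdps, and NC_CCl4 replicate 3 (orange triangle) is the lowest point for most enzymes.

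The enzymes as a whole separated libraries within groups more than they separated groups. The 20 enzyme genes summed to 1466, 1570 and 2339 TPM in the sh1_CCl4 livers, to 1465, 1459 and 2434 TPM in the sh2_CCl4 livers and to 1751, 1958 and 911 TPM in the NC_CCl4 livers. Replicate 3 of either shRNA group held the highest sum of its group, and NC_CCl4 replicate 3 the lowest of all 9, so the groups overlapped. The sum averaged 1791 ± 477 TPM in sh1_CCl4 livers, 1786 ± 561 in sh2_CCl4 livers and 1540 ± 554 in NC_CCl4 livers (SD, n = 3 each).

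In CPM, sh1_CCl4 replicate 3 was the highest of the 9 livers for 5 of the 26 genes (12.3% of all genes tested), and sh2_CCl4 replicate 3 was the highest for 17 (14.1%). NC_CCl4 replicate 3 was the lowest of the 9 for 20 of the 26 genes, a place it took for 16.4% of all genes. Within their own groups, sh1_CCl4 replicate 3 was highest for 21 of 26 (40.2% of all genes), sh2_CCl4 replicate 3 was highest for 22 (33.5%) and NC_CCl4 replicate 3 was lowest for 22 (36.3%). Relative to each gene's mean over the 9 livers, the median of the 26 genes stood at -0.11, -0.01 and 0.44 (log2) in sh1_CCl4 replicates 1 to 3. It stood at -0.05, -0.08 and 0.63 in sh2_CCl4, and at 0.01, 0.10 and -0.81 in NC_CCl4. The same median over all genes tested lay between -0.02 and 0.01 in every library.

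**Figure D2:**
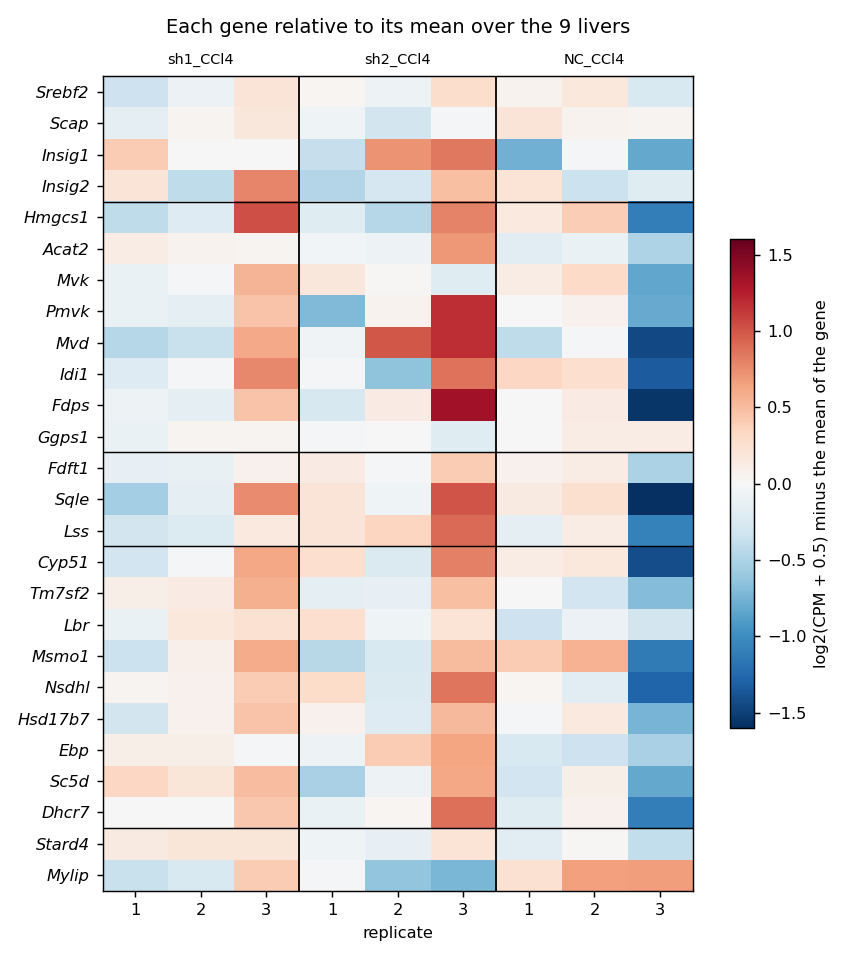
Colour gives log2(CPM + 0.5) of each of the 26 genes minus its mean over the 9 livers (red higher, blue lower), with libraries in columns and pathway steps separated by lines. NC_CCl4 replicate 3 is blue for nearly all enzymes, sh1_CCl4 and sh2_CCl4 replicate 3 are red, and the medians of the remaining 6 libraries lie between -0.11 and 0.10.

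The spread between livers of a group was wider for the 26 genes than for the median gene. The highest library was a median of 1.43 times the lowest in the sh1_CCl4 group, 1.83 times in sh2_CCl4 and 1.87 times in NC_CCl4, against 1.26, 1.38 and 1.25 over all genes tested. The livers of a group spanned over 2-fold in 4 of the 26 genes in sh1_CCl4 (12.3% of all genes), in 10 in sh2_CCl4 (16.5%) and in 11 in NC_CCl4 (9.75%). The span in NC_CCl4 livers was 3.73-fold for Sqle, 3.24-fold for Fdps, 3.23-fold for Msmo1 and 3.18-fold for Idi1. It was 1.33-fold for Srebf2, 1.11-fold for Scap, 1.19-fold for Lbr and 1.09-fold for Ggps1, so the transcript of the transcription factor, that of its escort and those of a pair of low-level enzymes varied less than most enzymes did.

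Against NC_CCl4, 0 of the 26 genes were called in sh1_CCl4 livers, where edgeR called 0.0% of all genes. The lowest adjusted p of the 26 was 0.218. At an unadjusted p under 0.05, 4 genes were higher (Tm7sf2, Stard4, Ebp and Lbr) and 0 lower, against 7.94% and 9.95% of all genes. With DESeq2, 0 passed in either direction, against 0.758% of all genes higher and 2.17% lower. The fold change was positive for 22 of the 26, with a median of 0.34 (0.02 over all genes), and in 7 genes the 3 sh1_CCl4 livers all lay above the 3 NC_CCl4 livers (15.6% of all genes), while 0 lay below (12.9%). Without NC_CCl4 replicate 3 the median was 0.04 and 16 of 26 were positive, and without sh1_CCl4 replicate 3 the median was 0.06 and 16 were positive.

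In sh2_CCl4 livers, 1 gene, Ebp, was called higher (4.71% of all genes were) and 1 gene, Mylip, was called lower (3.89% of all genes). Of these 2, only Mylip was also past a fold of 2. At an unadjusted p under 0.05, 6 genes were higher and 1 lower, against 16.3% and 14.9% of all genes. DESeq2 called 4 higher (Ebp, Mvd, Insig1 and Lss) and 1 lower (Mylip), against 8.39% and 7.57% of all genes. The fold change was positive for 22 of 26, with a median of 0.39 (0.0046 over all genes). The sh2_CCl4 livers all lay above the NC_CCl4 livers in 4 genes (Acat2, Lss, Lbr and Ebp) and below in 3 genes (Scap, Ggps1 and Mylip), against 16.8% and 16.1% of all genes. Without NC_CCl4 replicate 3 the median was 0.19, 18 were positive and edgeR called 0 of the 26, as it did 0.0% of all genes (2953 genes were at an unadjusted p under 0.05). Without sh2_CCl4 replicate 3 the median was 0.13, 16 were positive and edgeR called 0 of the 26, against 2.5% of all genes. Over all genes, edgeR called 615 higher and 508 lower with TMM scaling, but 216 higher and 1138 lower when only library totals were used. The 2 comparisons share the same 3 NC_CCl4 libraries and so are not independent.

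Between the shRNAs (sh2_CCl4 over sh1_CCl4), 0 of the 26 genes were called by edgeR or by DESeq2, against 0.0% and 0.452% of all genes, and 0 reached an unadjusted p under 0.05 (10.5% of all genes). The median fold change was 0.09. It was -0.14 without sh2_CCl4 replicate 3 and 0.26 without sh1_CCl4 replicate 3. The largest differences were those of Mvd at 0.80 ± 0.43 and Lss at 0.63 ± 0.29 (log2 ± SE, adjusted p 0.538 and 0.482, edgeR).

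**Figure D3:**
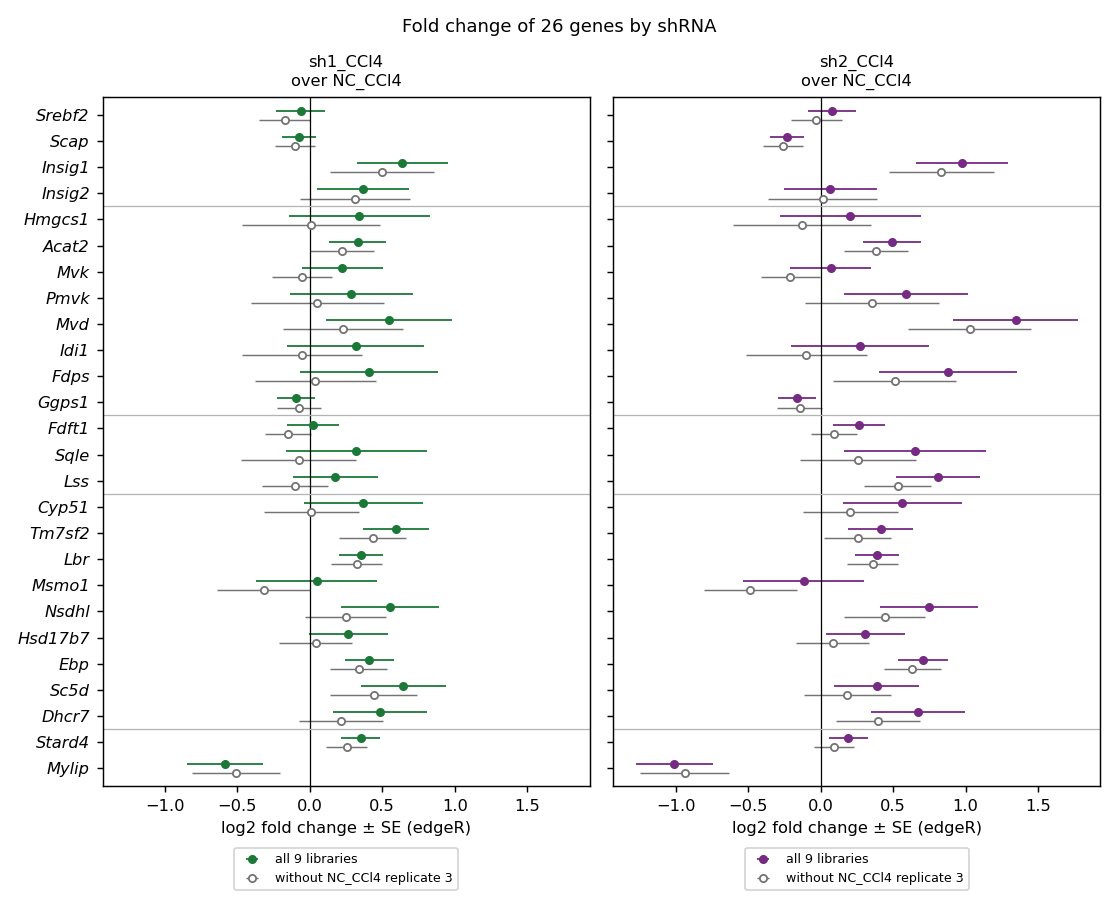
Log2 fold change ± SE from edgeR of the 26 genes in sh1_CCl4 (left) and sh2_CCl4 (right) over NC_CCl4, in filled points with all 9 libraries and in open points without NC_CCl4 replicate 3. Most enzymes lie right of 0 with all libraries and move towards 0 without that library, while Ebp, Lbr and Mylip move little.

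Of the 4 regulators, 0 were called in either comparison. Srebf2, the transcription factor gene, was measured at 45.5, 53.8 and 66.8 CPM in sh1_CCl4 livers, at 58.8, 54.4 and 70.2 CPM in sh2_CCl4 livers and at 60.0, 64.9 and 48.8 CPM in NC_CCl4 livers. The 3 groups overlapped throughout, and the fold changes were -0.06 ± 0.17 and 0.08 ± 0.17 (log2 ± SE) for sh1_CCl4 and sh2_CCl4, and the value for sh2_CCl4 was negative (-0.08) with library totals alone. Scap had 66.5, 76.1 and 83.8 CPM in sh1_CCl4 livers, 70.5, 60.2 and 71.8 CPM in sh2_CCl4 livers and 85.0, 76.8 and 76.3 CPM in NC_CCl4 livers. All 3 sh2_CCl4 livers lay below the NC_CCl4 livers for Scap, by -0.23 ± 0.12, and the difference did not pass the test (edgeR, adjusted p = 0.208). On the TPM scale limma put it at -0.44 with an adjusted p of 0.0472, on a scale where the median of all genes stood at -0.18.

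Insig1 was measured at 353, 267 and 268 CPM in sh1_CCl4 livers, at 207, 437 and 477 CPM in sh2_CCl4 livers and at 156, 263 and 151 CPM in NC_CCl4 livers. The sh1_CCl4 livers all lay above the NC_CCl4 livers, narrowly so over NC_CCl4 replicate 2, while sh2_CCl4 replicate 1 fell within the NC_CCl4 range. The fold change was 0.64 ± 0.32 in sh1_CCl4 (edgeR, adjusted p = 0.316) and 0.98 ± 0.32 in sh2_CCl4 (edgeR, adjusted p = 0.0763, DESeq2, adjusted p = 0.0186). Leaving out sh2_CCl4 replicate 1, the liver within the NC_CCl4 range, gave the sh2_CCl4 difference an edgeR adjusted p of 0.0198, and leaving out each other library gave 0.0723 to 0.218. Insig2, the INSIG whose liver transcript is known to be lowered by insulin, had 120, 78.7 and 179 CPM in sh1_CCl4 livers, 74.9, 86.6 and 146 CPM in sh2_CCl4 livers and 121, 81.7 and 90.6 CPM in NC_CCl4 livers. Those groups overlapped, with replicate 3 the highest of either shRNA group.

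The first 8 enzymes turn acetyl-CoA into farnesyl and geranylgeranyl diphosphate, and 7 of the 8 had positive fold changes in either comparison, with 0 called. Hmgcs1, the cytosolic HMG-CoA synthase, was measured at 245, 281 and 666 CPM in sh1_CCl4 livers, at 284, 238 and 563 CPM in sh2_CCl4 livers and at 364, 427 and 151 CPM in NC_CCl4 livers. Replicate 3 stood apart in all 3 groups, high with either shRNA and low in NC_CCl4, and the other livers of the shRNA groups lay below NC_CCl4 replicates 1 and 2. Its fold changes of 0.34 ± 0.49 in sh1_CCl4 and 0.20 ± 0.49 in sh2_CCl4 were 0.01 and -0.13 without NC_CCl4 replicate 3. A like pattern was found in Idi1, isopentenyl diphosphate isomerase, with 91.2, 104 and 179 CPM in sh1_CCl4 livers, 103, 67.0 and 192 CPM in sh2_CCl4 livers and 132, 126 and 41.6 CPM in NC_CCl4 livers.

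Mvd, mevalonate diphosphate decarboxylase, had the largest fold change of the 26 genes with sh2_CCl4. It was measured at 13.1, 14.1 and 28.0 CPM in sh1_CCl4 livers, at 17.4, 36.6 and 41.8 CPM in sh2_CCl4 livers and at 13.6, 17.7 and 6.40 CPM in NC_CCl4 livers. In sh2_CCl4 replicates 2 and 3 it stood above every NC_CCl4 liver, and in replicate 1 just below NC_CCl4 replicate 2. The fold change in sh2_CCl4 was 1.34 ± 0.43 (edgeR, adjusted p = 0.0745, DESeq2, adjusted p = 0.0154), and 1.03 ± 0.42 without NC_CCl4 replicate 3. Without sh2_CCl4 replicate 1 it was 1.62 (edgeR, adjusted p = 0.0351), and leaving out each other library gave adjusted p values of 0.0504 to 0.196. In sh1_CCl4 it was 0.55 ± 0.43, and 0.23 without NC_CCl4 replicate 3.

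Fdps was measured at 157, 150 and 228 CPM in sh1_CCl4 livers, at 138, 181 and 421 CPM in sh2_CCl4 livers and at 165, 181 and 56.0 CPM in NC_CCl4 livers. Outside replicate 3 the groups lay together, between 138 and 181 CPM. Mvk and Pmvk encode the kinases that phosphorylate mevalonate. Mvk had 23.6, 25.0 and 37.4 CPM in sh1_CCl4 livers, 28.9, 25.9 and 22.3 CPM in sh2_CCl4 livers and 27.7, 31.7 and 14.1 CPM in NC_CCl4 livers. Pmvk had 22.5, 21.8 and 33.5 CPM in sh1_CCl4 livers, 14.7, 25.3 and 56.0 CPM in sh2_CCl4 livers and 24.5, 25.6 and 13.7 CPM in NC_CCl4 livers. For Mvk the highest library of the sh2_CCl4 group was replicate 1 and the lowest replicate 3, the reverse of most enzymes. Acat2, a cytosolic acetyl-CoA acetyltransferase, had 85.4, 81.2 and 81.1 CPM in sh1_CCl4 livers, 76.0, 74.2 and 127 CPM in sh2_CCl4 livers and 68.9, 72.7 and 55.4 CPM in NC_CCl4 livers. All 6 shRNA livers lay above the 3 NC_CCl4 livers, with fold changes of 0.33 ± 0.20 in sh1_CCl4 and 0.49 ± 0.20 in sh2_CCl4 that did not pass the test (edgeR, adjusted p 0.399 and 0.129). The counts of Acat2, Idi1 and Fdft1 were fractional in all 9 libraries, since their reads were shared out with other gene models, and their values are the less certain for it.

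Ggps1, which makes geranylgeranyl diphosphate for protein prenylation off the sterol branch, did not follow the order of the other enzymes. It had 7.90, 8.88 and 8.82 CPM in sh1_CCl4 livers, 8.38, 8.61 and 7.41 CPM in sh2_CCl4 livers and 8.63, 9.35 and 9.37 CPM in NC_CCl4 livers. All 3 sh2_CCl4 livers lay below the NC_CCl4 livers, narrowly so over NC_CCl4 replicate 1, and the fold change was -0.16 ± 0.13 (edgeR, adjusted p = 0.422).

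The next 3 enzymes make squalene and close it to lanosterol. Fdft1, squalene synthase, ranged from 176 to 202 CPM in sh1_CCl4 livers and from 188 to 256 CPM in sh2_CCl4 livers, and had 201, 208 and 136 CPM in NC_CCl4 livers. Sqle, squalene epoxidase, had 65.5, 86.0 and 161 CPM in sh1_CCl4 livers, 110, 91.3 and 192 CPM in sh2_CCl4 livers and 105, 114 and 30.7 CPM in NC_CCl4 livers. The NC_CCl4 livers spanned the widest range of the 26 genes here, and replicate 3 was again the highest with either shRNA. Its fold change of 0.65 ± 0.49 in sh2_CCl4 was 0.25 ± 0.40 without NC_CCl4 replicate 3. Lss, lanosterol synthase, was measured at 51.6, 54.0 and 70.3 CPM in sh1_CCl4 livers, at 72.8, 80.7 and 119 CPM in sh2_CCl4 livers and at 57.1, 68.8 and 29.6 CPM in NC_CCl4 livers. All 3 sh2_CCl4 livers lay above all livers of both other groups for Lss. Its fold change in sh2_CCl4 was 0.81 ± 0.29 (edgeR, adjusted p = 0.0967, DESeq2, adjusted p = 0.0424), and 0.53 ± 0.23 without NC_CCl4 replicate 3.

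Of the 9 enzymes that turn lanosterol into cholesterol, 9 had positive fold changes in sh1_CCl4 and 8 in sh2_CCl4, and 1, Ebp, was called. Ebp encodes the emopamil binding protein, the sterol isomerase that moves a double bond within the ring system. It was measured at 196, 196 and 180 CPM in sh1_CCl4 livers, at 174, 243 and 285 CPM in sh2_CCl4 livers and at 155, 147 and 128 CPM in NC_CCl4 livers. All 6 shRNA livers lay above all 3 NC_CCl4 livers. Ebp rose in sh2_CCl4 by 0.71 ± 0.17 (edgeR, adjusted p = 0.0411), and its difference in sh1_CCl4 of 0.41 ± 0.17 did not pass the test (adjusted p = 0.250). Leaving out a library in turn gave sh2_CCl4 fold changes of 0.52 to 0.86. The edgeR adjusted p stayed under 0.05 without sh1_CCl4 replicate 3 (0.0381) or sh2_CCl4 replicate 1 (0.0145). It was 0.0584 and 0.0686 without sh1_CCl4 replicates 1 and 2, 0.113 and 0.0812 without sh2_CCl4 replicates 2 and 3, and 0.0845, 0.0848 and 0.130 without NC_CCl4 replicates 1, 2 and 3.

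Lbr, whose protein is both a sterol C14-reductase and a receptor of the inner nuclear membrane, had 11.5, 14.0 and 14.8 CPM in sh1_CCl4 livers, 15.0, 11.8 and 14.5 CPM in sh2_CCl4 livers and 9.80, 11.6 and 10.1 CPM in NC_CCl4 livers. The sh2_CCl4 livers all lay above the NC_CCl4 livers, by 0.39 ± 0.15, which did not pass the test (edgeR, adjusted p = 0.115). Its partner Tm7sf2 had 66.1, 68.1 and 92.7 CPM in sh1_CCl4 livers, 56.2, 56.9 and 87.1 CPM in sh2_CCl4 livers and 61.6, 50.3 and 38.3 CPM in NC_CCl4 livers. For Tm7sf2 it was the sh1_CCl4 livers that all lay above, by 0.60 ± 0.23 (edgeR, adjusted p = 0.218).

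Cyp51, the lanosterol demethylase, was measured at 107, 131 and 205 CPM in sh1_CCl4 livers, at 161, 113 and 233 CPM in sh2_CCl4 livers and at 144, 149 and 49.5 CPM in NC_CCl4 livers. Msmo1, the sterol C4-methyl oxidase, had 172, 231 and 330 CPM in sh1_CCl4 livers, 159, 184 and 310 CPM in sh2_CCl4 livers and 289, 321 and 99.2 CPM in NC_CCl4 livers. In both genes the groups overlapped and replicate 3 was the extreme library of each group, and Msmo1 was the enzyme of this stretch with a negative fold change in sh2_CCl4 (-0.12 ± 0.42). Nsdhl and Hsd17b7 act with Msmo1 in removing the C4 methyl groups. Nsdhl had 102, 103 and 131 CPM in sh1_CCl4 livers, 121, 83.9 and 179 CPM in sh2_CCl4 livers and 101, 87.6 and 40.2 CPM in NC_CCl4 livers. Hsd17b7 ranged from 45.0 to 76.0 CPM in sh1_CCl4 livers and from 47.6 to 78.9 CPM in sh2_CCl4 livers, overlapping 32.8 to 61.4 CPM in NC_CCl4 livers.

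Sc5d and Dhcr7 carry out late steps, the C5-desaturation and the reduction of 7-dehydrocholesterol. Sc5d had 269, 246 and 301 CPM in sh1_CCl4 livers, 149, 203 and 331 CPM in sh2_CCl4 livers and 173, 229 and 121 CPM in NC_CCl4 livers. It was the enzyme with the highest fold change in sh1_CCl4, where all 3 livers lay above NC_CCl4 (0.64 ± 0.29, edgeR, adjusted p = 0.284). Dhcr7 had 121, 122 and 164 CPM in sh1_CCl4 livers, 114, 124 and 224 CPM in sh2_CCl4 livers and 106, 128 and 56.4 CPM in NC_CCl4 livers. Apart from replicate 3 of each group, the Dhcr7 values lay between 106 and 128 CPM, and its fold change of 0.67 ± 0.32 in sh2_CCl4 was 0.40 ± 0.29 without NC_CCl4 replicate 3.

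The last 3 genes handle sterols outside synthesis. Mylip, a ubiquitin ligase that acts on lipoprotein receptors and is a known target of the liver X receptors, was measured at 7.02, 7.59 and 12.2 CPM in sh1_CCl4 livers, at 9.0, 5.72 and 5.26 CPM in sh2_CCl4 livers and at 10.9, 14.6 and 14.7 CPM in NC_CCl4 livers. The sh2_CCl4 livers all lay below the NC_CCl4 livers, and in sh1_CCl4 only replicate 3 reached the NC_CCl4 range. NC_CCl4 replicate 3, the lowest library for most enzymes, was the highest for Mylip. Mylip fell by 1.01 ± 0.27 on the log2 scale in sh2_CCl4 (edgeR, adjusted p = 0.0481), and its difference in sh1_CCl4 of -0.58 ± 0.26 did not pass (adjusted p = 0.279). Leaving out a library in turn gave -1.31 to -0.89 in sh2_CCl4. The adjusted p was 0.0287 without sh1_CCl4 replicate 3 and 0.0213 without sh2_CCl4 replicate 1, but 0.0554 and 0.0693 without sh1_CCl4 replicates 1 and 2, 0.136 and 0.101 without sh2_CCl4 replicates 2 and 3, and 0.0812, 0.108 and 0.137 without NC_CCl4 replicates 1, 2 and 3.

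Stard4, a soluble sterol carrier, had 121, 126 and 126 CPM in sh1_CCl4 livers, 105, 100 and 128 CPM in sh2_CCl4 livers and 97.0, 112 and 84.0 CPM in NC_CCl4 livers. The sh1_CCl4 livers lay closely together and above NC_CCl4, by 0.35 ± 0.13 (edgeR, adjusted p = 0.225). Npc1l1, the transporter that takes up sterols in the intestine, did not pass the filter. It had 1, 2 and 1 counts in sh1_CCl4 livers, 0, 0 and 0 in sh2_CCl4 livers and 2, 1 and 0 in NC_CCl4 livers, and at this depth a difference was not detectable.

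Other lists of the pathway and its surroundings were set beside the 26 genes. Of 14 further genes of SREBP processing and sterol sensing, 0 were called in either comparison, and of 10 other SREBP-responsive genes 0 were called, with medians of 0.35 in sh1_CCl4 and 0.41 in sh2_CCl4. Over all genes edgeR called 0.0% in sh1_CCl4 and 8.6% in sh2_CCl4. The SREBP-responsive list followed the same libraries as the cholesterol genes, with a median level of -0.62 (log2) in NC_CCl4 replicate 3 and 0.52 in sh2_CCl4 replicate 3. A list of 12 lipogenesis genes and regulators, which held Srebf1 itself, had a median of 0.82 in sh1_CCl4 and 0.53 in sh2_CCl4, and 1 of the 12 was called. It was Pnpla3, a lipid droplet protein, at 2.01, 0.62 and 0.55 CPM in sh1_CCl4 livers, 0.76, 5.08 and 3.05 CPM in sh2_CCl4 livers and 0.23, 0.56 and 0.51 CPM in NC_CCl4 livers, higher in sh2_CCl4 (2.74 ± 0.74, edgeR, adjusted p = 0.0489). The order of libraries for the 12 lipogenesis genes differed from that of the cholesterol genes, with levels of 0.48, 0.01 and 0.05 in sh1_CCl4 replicates 1 to 3, -0.51, 0.31 and 0.87 in sh2_CCl4 and -0.48, -0.26 and -0.30 in NC_CCl4. NC_CCl4 replicate 3 thus stood with its group for lipogenesis and apart from it for cholesterol synthesis. Srebf1, the gene of SREBP1, had 362, 249 and 154 CPM in sh1_CCl4 livers, 142, 280 and 374 CPM in sh2_CCl4 livers and 105, 158 and 162 CPM in NC_CCl4 livers, and its fold changes of 0.85 and 0.90 did not pass the test (edgeR, adjusted p 0.273 and 0.136).

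Of 18 genes of cholesterol uptake, storage and efflux, edgeR called 3 lower and 1 higher in sh2_CCl4, and 0 in sh1_CCl4. Of all genes it called 3.89% lower and 4.71% higher in sh2_CCl4, and 0.0% in sh1_CCl4. Soat1, which esterifies cholesterol for storage, had 10.3, 14.2 and 11.3 CPM in sh1_CCl4 livers, 16.2, 11.3 and 9.21 CPM in sh2_CCl4 livers and 28.3, 19.2 and 27.6 CPM in NC_CCl4 livers. It fell in sh2_CCl4 by 1.03 ± 0.23 on the log2 scale (edgeR, adjusted p = 0.0356), and all 6 shRNA livers lay below all 3 NC_CCl4 livers. Its difference in sh1_CCl4 was -1.07 ± 0.23 (edgeR, adjusted p = 0.1435, DESeq2, adjusted p = 0.00306). Abcg1, a sterol efflux transporter, fell in sh2_CCl4 by 0.86 ± 0.23 (adjusted p = 0.0484), with 16.7 to 24.1 CPM in sh1_CCl4 livers, 11.6 to 23.5 in sh2_CCl4 livers and 28.2 to 35.4 in NC_CCl4 livers. Gramd1b fell by 0.96 ± 0.25 and Gramd1c rose by 0.55 ± 0.13 (adjusted p 0.0452 and 0.0368), and both encode proteins that move sterol from the plasma membrane to the endoplasmic reticulum. In sh1_CCl4 the fold changes of Abcg1, Gramd1b and Gramd1c were -0.61, -0.83 and 0.48 (DESeq2, adjusted p 0.147, 0.0693 and 0.0784). Of 8 genes that turn cholesterol into bile acids, 1 was called in sh2_CCl4. It was Cyp8b1, the sterol 12-hydroxylase, with 74.2, 139 and 72.3 CPM in sh1_CCl4 livers, 60.2, 89.0 and 94.9 CPM in sh2_CCl4 livers and 232, 254 and 144 CPM in NC_CCl4 livers (-1.37 ± 0.30 in sh2_CCl4, adjusted p = 0.0356). The Cyp8b1 difference in sh1_CCl4 was -1.14 ± 0.30 (edgeR, adjusted p = 0.160, DESeq2, adjusted p = 0.0119). Of 15 genes of other isoprenoid branches, Pdss1, which makes the side chain of coenzyme Q, was called higher in sh2_CCl4 (0.80 ± 0.20, adjusted p = 0.0416). Of 15 circadian clock genes tested, 1, Cry2, was called, lower in sh2_CCl4 (-0.57 ± 0.085, edgeR, adjusted p = 0.0201). Its difference in sh1_CCl4 was -0.48 ± 0.085 (edgeR, adjusted p = 0.111, DESeq2, adjusted p = 0.00229). These single calls, like those of Ebp and Mylip, stand in a comparison in which edgeR called 0 of all genes without NC_CCl4 replicate 1, NC_CCl4 replicate 3 or sh2_CCl4 replicate 2, while 3360, 2953 and 3081 genes had an unadjusted p under 0.05 there.

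**Figure D4:**
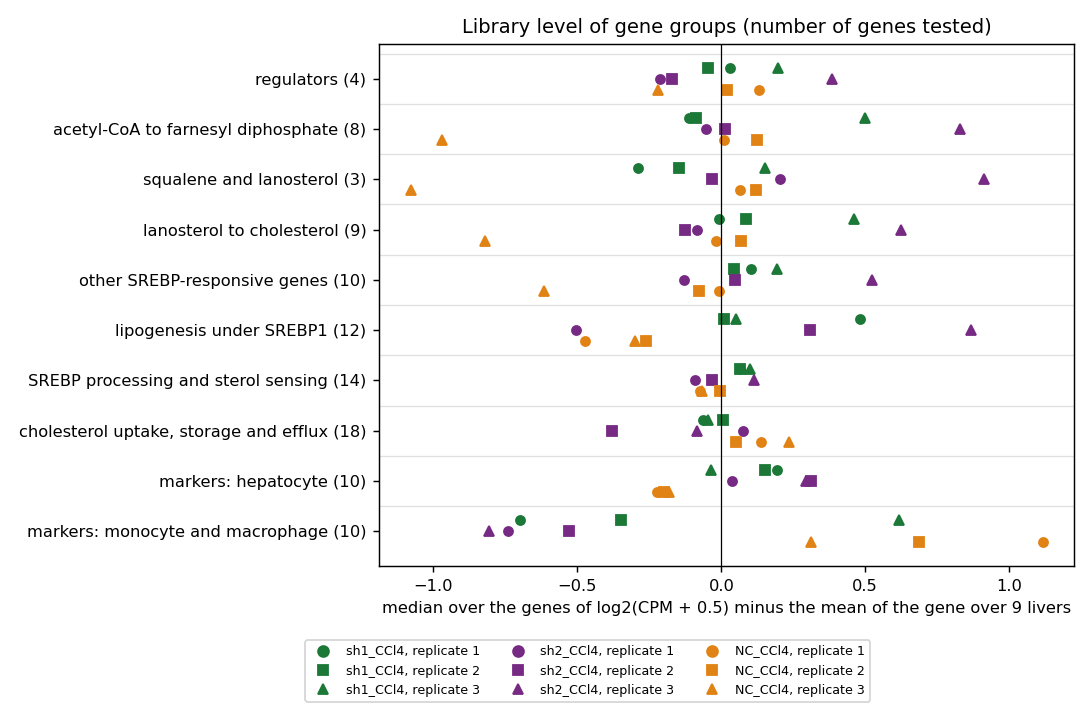
Median over the genes of a list of log2(CPM + 0.5) minus each gene's mean over the 9 livers, a point per library. NC_CCl4 replicate 3 lies at -1.08 to -0.82 for the 3 enzyme steps and at -0.30 for lipogenesis, next to the other NC_CCl4 livers there, and monocyte and macrophage markers separate the groups in another order.

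Of the markers of other cell types, edgeR called some lower in sh2_CCl4 livers and 0 in sh1_CCl4 livers. Over all genes it called 4.71% higher and 3.89% lower in sh2_CCl4, and 0.0% in sh1_CCl4. The 10 monocyte and macrophage markers summed to 428 to 984 CPM in sh1_CCl4 livers, 431 to 478 CPM in sh2_CCl4 livers and 914 to 1501 CPM in NC_CCl4 livers. With sh2_CCl4, 5 of the 10 were called lower and 0 higher, and 0 of the 10 were at 0 in any library. All 10 fold changes were negative in both comparisons, with medians of -0.94 in sh1_CCl4 and -1.63 in sh2_CCl4. Among those called, Lyz2, Itgb2, Csf1r and Ccr2 had DESeq2 adjusted p values of 0.0132 to 0.0481 in sh1_CCl4, where DESeq2 called 2.17% of all genes lower. The 8 stellate cell markers summed to 317 to 473 CPM in sh1_CCl4 livers, 340 to 512 CPM in sh2_CCl4 livers and 418 to 682 CPM in NC_CCl4 livers, ranges that overlapped, with 2 called lower in sh2_CCl4. Of the 8 fold changes 6 were negative in either comparison, with medians of -0.40 in sh1_CCl4 and -0.24 in sh2_CCl4. The 2 called genes, Dcn and Pdgfra, had DESeq2 adjusted p values of 0.0444 and 0.0333 in sh1_CCl4. Their edgeR fold changes in sh1_CCl4 were -0.58 and -0.88, and -0.38 and -0.57 without NC_CCl4 replicate 3. The 5 Kupffer cell markers summed to 159 to 358 CPM in sh1_CCl4 livers, 132 to 153 CPM in sh2_CCl4 livers and 173 to 270 CPM in NC_CCl4 livers, with 0 called. All 5 fold changes were negative in sh2_CCl4 (median -0.93), and 3 of the 5 in sh1_CCl4 (median -0.02). The 6 cholangiocyte markers, 5 of them tested, summed to 183 to 454 CPM in sh1_CCl4 livers, 386 to 1250 in sh2_CCl4 livers and 269 to 424 in NC_CCl4 livers. Of these, and of the 4 B, T and NK cell markers tested, 0 were called. The 7 endothelial markers were all negative in both comparisons, with medians of -0.16 in sh1_CCl4 and -0.36 in sh2_CCl4 and 0 called. The 10 hepatocyte markers had 0 calls in either comparison, and 9 of the 10 were positive in each, with a median of 0.17 in sh1_CCl4 and 0.41 in sh2_CCl4. Their median level was 0.19, 0.15 and -0.03 (log2) in sh1_CCl4 replicates 1 to 3, 0.04, 0.31 and 0.29 in sh2_CCl4 and -0.22, -0.20 and -0.18 in NC_CCl4, so every shRNA liver lay above every NC_CCl4 liver on that measure. Their sums overlapped, at 127970 to 177000 CPM in sh1_CCl4 livers, 154910 to 185690 in sh2_CCl4 livers and 128120 to 157190 in NC_CCl4 livers. The lowest sum was that of sh1_CCl4 replicate 3. Within sh1_CCl4 the monocyte and macrophage sum was 428, 625 and 984 CPM in replicates 1 to 3, in the same order as the enzyme sum. It was 441, 478 and 431 CPM in sh2_CCl4 and 1501, 914 and 1129 CPM in NC_CCl4, in another order than the enzyme sum. The part of these markers, and of the Alb share, in the values of the 26 genes was not tested.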

How the data were processed

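Liver RNA of 9 mice was sequenced as single-end 50-base reads, and samples were grouped by the submitters' labels. The authors deposited 1 table with expected counts per gene and library (RSEM estimates, not normalized, 8.15% not whole), TPM and FPKM, both scaled by the authors to library size and gene length. The FPKM values were not used. In the submitters' processing notes the tools are RSEM, Bowtie2 and BWA (no versions) and the build is hg19, which is human, although 17198 of the 17305 gene numbers matched a mouse RefSeq table, so no gene coordinates were taken from the files. In 22 rows a symbol turned into a date was restored.

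Expected counts were rounded and fitted in R 4.3.3 with edgeR 4.0.16 (quasi-likelihood test, TMM factors 0.882 to 1.07, filterByExpr with its minimum count of 10, 13059 genes kept, biological coefficient of variation 19.9%). All 9 libraries entered 1 fit without covariates. Benjamini-Hochberg adjustment ran over all genes tested and a gene was called under 0.05. SEs come from the fold change and the F statistic. Library levels used log2(CPM + 0.5). With 3 against 3 an exact two-sided permutation test of a single gene cannot go below 0.1, and none is given. The fit was tested on simulated data. The study's text gives RNA from 3 mice a group, and no library was a copy of another.

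The alternatives were DESeq2 1.42.0, RLE factors, library totals alone, no filter, a filter of 1 CPM in 3 libraries, only the 2 groups compared, a replicate block, limma 3.58.1 on log2(TPM + 1) and log2(TPM + 0.1), and leaving out each library. The 27 genes, the other lists and the tests were chosen with earlier results of these data known. Named are the 27 genes, Srebf1, and up to 4 called genes of each other list. Promoters came from RefSeq (GRCm38.p6).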

Additional observations from a re-analysis of the deposited data

How the results depend on the processing

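The fold changes of single genes kept their direction and side of the threshold in 946 of 1026 values under the alternatives. Most of these were uncalled in the main fit and had no call to lose, so that count does not measure how stable the calls were. The 22 values that lost a call were all those of Ebp and Mylip in sh2_CCl4, the only called differences. No reversed value was called under either setting, and in sh1_CCl4 0 of the 26 genes were called under any of the alternatives listed in the methods. Over all genes in sh1_CCl4, DESeq2 called 2.93%, and no edgeR or limma setting called more than 2 genes. The 3 livers per group limit what can be told apart. The cause of the changes listed here was not tested.

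With library totals alone the median of all genes in sh2_CCl4 moved to -0.15 (log2), and on the log2(TPM + 1) scale to -0.18, where limma called 144 genes higher and 1513 lower. The median of the cholesterol genes on that scale was 0.11 in sh2_CCl4 and 0.18 in sh1_CCl4. The cholesterol genes called in sh2_CCl4 are counted here with the count over all genes in parentheses. Those called higher, 1 by edgeR (615), were 4 with DESeq2 (1095) and 0 with only the 2 groups compared (225). They were 0 with limma on log2(TPM + 1) (144) or log2(TPM + 0.1) (137) and 0 with limma without the filter (99 of 17303). With a library left out they were 0 to 3 (0 to 912). Genes called lower, 1 by edgeR (508), were 0 with only the 2 groups compared (262). They were 2 with limma on log2(TPM + 1) (1513) or log2(TPM + 0.1) (1419) and 0 with limma without the filter (892 of 17303). With a library left out they were 0 to 1 (0 to 769).

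The correlations of same-numbered libraries' deviations from their group means ran from -0.424 to 0.217. No differently numbered libraries were set beside them, so they cannot tell whether the replicate number marks a pairing or a shared batch. With the replicate number as a block, 0 of the 26 genes and 0 of all genes were called in sh2_CCl4 (3629 genes at an unadjusted p under 0.05), and the fold change of Msmo1 in sh1_CCl4 was -0.0054 (0.048 without the block).

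Genes whose livers all lay on one side are given here with the share of all genes that did so. Higher than NC_CCl4 were 7 in sh1_CCl4 (15.6%), 2 with library totals alone (5.86%), 1 in TPM (5.18%) and 6 to 9 with a library left out (13.6 to 25.9%). In sh2_CCl4 they were 4 (16.8%), 2 with library totals (7.86%), 1 in TPM (5.12%) and 3 to 8 with a library left out (15.9 to 23.7%). Lower in sh1_CCl4 were 0 (12.9%), 1 with library totals (23.1%), 1 in TPM (22.9%) and 0 to 2 with a library left out (14.4 to 22.2%). For sh2_CCl4 over sh1_CCl4, those higher were 1 (7.02%), 0 in TPM (2.96%) and 1 to 5 with a library left out (7.02 to 15.7%), and those lower were 0 (7.14%), 1 with library totals (9.15%), 1 in TPM (12.1%) and 0 to 4 with a library left out (7.14 to 15.6%).

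Signs turned for uncalled differences of up to 0.59 (Pmvk in sh2_CCl4). With library totals alone, Fdft1 (-0.11) and Msmo1 (-0.078) in sh1_CCl4 and Srebf2 (-0.078), Insig2 (-0.11) and Mvk (-0.072) in sh2_CCl4 were negative, as was Fdft1 with the filter of 1 CPM in 3 libraries (-0.0045). With limma on log2(TPM + 1), with or without the filter, Fdft1 in sh1_CCl4 was -0.10, and in sh2_CCl4 Srebf2 was -0.19, Insig2 -0.20, Mvk -0.10 and Stard4 -0.13. On log2(TPM + 0.1) they were -0.10, -0.19, -0.21, -0.10 and -0.13. With a library left out, the sh1_CCl4 ranges that crossed 0 were -0.15 to 0.13 for Fdft1, -0.26 to 0.63 for Hmgcs1, -0.053 to 0.57 for Idi1, -0.10 to 0.43 for Lss, -0.32 to 0.33 for Msmo1, -0.052 to 0.45 for Mvk, -0.14 to 0.62 for Sqle and -0.22 to 0.036 for Srebf2. In sh2_CCl4 they were -0.28 to 0.49 for Hmgcs1, -0.25 to 0.55 for Idi1, -0.29 to 0.25 for Insig2, -0.49 to 0.17 for Msmo1, -0.21 to 0.30 for Mvk, -0.10 to 0.92 for Pmvk, -0.0027 to 0.63 for Sc5d and -0.0499 to 0.17 for Srebf2.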
